A study of Mus musculus with 2 samples.

Results

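The lipid droplet proteins and lipases described here are 10 genes: the perilipins Plin1 to Plin5, the CIDE proteins Cidea and Cidec, the lipases Pnpla2 and Lipe, and the lipase coactivator Abhd5. They were chosen by name, for their known roles, out of 16269 reference genes detected in long-read RNA sequencing of heart tissue. The tissue came from male mice aged 14 days of the B6CASTF1/J strain, a first-generation cross between C57BL/6J and the wild-derived CAST strain. No transgene, deletion or treatment is named in the labels, and the series holds 1 group with 2 libraries, called biological replicates 1 and 2. Both carry the same donor label. The labels mention 3 males without saying whether tissue was pooled. They number the tissue samples differently, yet the library descriptions of both name the same sample and the same cDNAs. SDs therefore measure the spread between these libraries, which may be technical. P-values compare these libraries only, by tests that hold counting error alone except where edgeR is named. All 10 genes were detected in both libraries, on 110 of 80682 transcript models in replicate 1 and on 114 of 85357 in replicate 2.

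Cells store fatty acids as triglyceride in lipid droplets, whose surface is coated by perilipins. Perilipins control which lipases reach the stored fat, and CIDE proteins let droplets fuse and grow. In lipolysis the triglyceride lipase encoded by Pnpla2 acts ahead of hormone-sensitive lipase, encoded by Lipe, and needs the coactivator encoded by Abhd5. Heart muscle burns fatty acids as its main fuel and keeps small droplets close to its mitochondria, where perilipin 5 is the typical coat. Perilipin 1, Cidec and Lipe are best known from fat cells.

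The libraries held 1059016 and 1064679 counts on reference genes, and levels are given as CPM, counts scaled to a total of 1000000 on reference genes. All 8 cardiomyocyte markers were detected in both libraries. Counts of Myh6, the adult heart myosin heavy chain, were 22068 and 24632 in replicates 1 and 2, and those of Actc1, cardiac actin, were 6686 and 7150. Of these 8 markers 2, Myh6 and Actc1, were higher in replicate 2 and 3 were higher in replicate 1: Pln (3002 and 2442), Myl2 (2505 and 2110) and Tnni3 (495 and 363). The libraries also differed across the transcriptome: 331 of 10162 genes tested passed the threshold between them. Atrial cardiomyocyte markers (6 genes, summed) had 5255 counts in replicate 1 against 1308 in replicate 2, led by Nppa, the atrial natriuretic peptide, with 3757 and 889, and by Myl4, an atrial light chain, with 586 and 182. Macrophage markers (8 genes) had 313 and 436 counts, led by Lyz2 with 97 and 182 and C1qa with 61 and 77.

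Plin5 was the most abundant of the 10 genes in both libraries, and the genes best known from fat cells were the scarcest. Summed over the 10 genes there were 1794 counts in replicate 1 and 1536 in replicate 2. That was 0.169% of the counts on reference genes (exact Clopper-Pearson 95% interval 0.162 to 0.177) and 0.144% (0.137 to 0.152), or 1568 ± 178 CPM (SD, n = 2). Plin5 alone took 50.8% of these counts in replicate 1 and 46.4% in replicate 2. Intervals cover counting error only, because copies of a molecule made by PCR cannot be told apart without molecular identifiers.

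The genes were ordered by CPM per kilobase of the dominant annotated transcript, a scale that depends on its length. Plin5 stood at 433 and 337 CPM per kilobase, above Plin2 at 101 and 114. Pnpla2 followed at 99.3 and 83.7, and Cidea at 102 and 59.0. Pnpla2 and Cidea overlapped between libraries, so their order was not resolved on this scale. Cidea in replicate 1 was also as high as Plin2 in that library. Plin3 at 37.0 and 42.0 and Abhd5 at 26.0 and 26.2 formed the next steps without overlap. Cidec (9.33 and 2.73) and Lipe (3.90 and 3.18) overlapped, and Plin1 was lowest at 0.671 and 0.667. Plin4 has no value on this scale because none of its counts fell on an annotated transcript. In CPM, which counts reads without dividing by length, parts of the order were reversed in both libraries. Pnpla2 (261 and 220 CPM) was above Plin2 (191 and 215), and Plin3 (135 and 153) was above Cidea (113 and 65.75). In CPM Pnpla2 was also above Cidea in both libraries, without overlap.

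**Figure D1:**
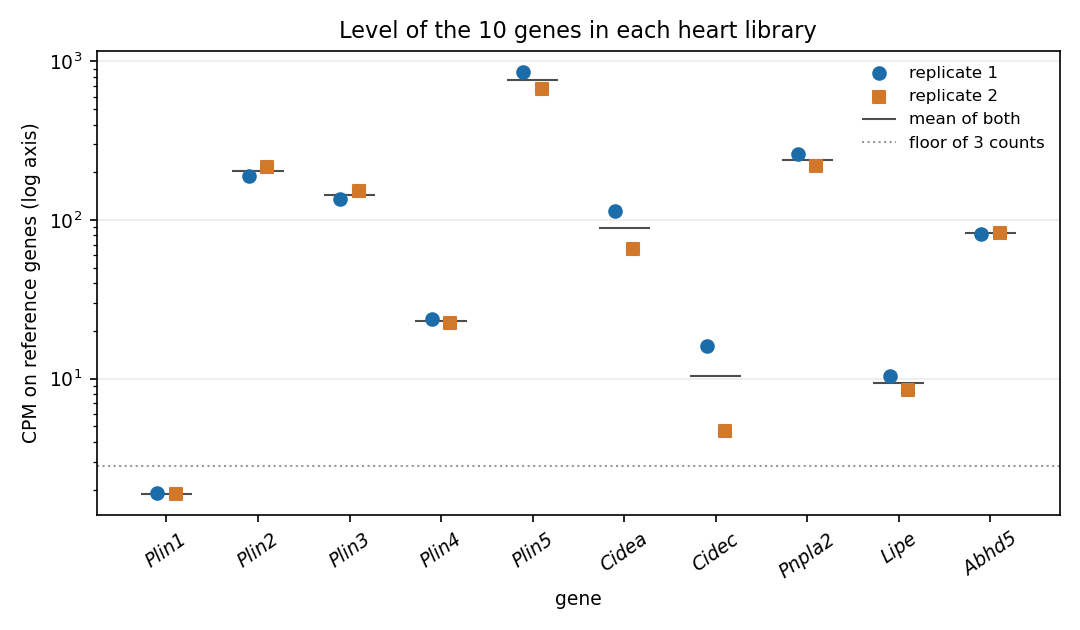
Level of each of the 10 genes in CPM on a log axis, with a circle for replicate 1, a square for replicate 2, a short line for their mean and a dotted line at the floor of 3 counts. Plin5 stands at 860 and 669 CPM, and Plin1 lies under the floor in both libraries.

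Plin5 and Cidea were higher in replicate 1, and none of the 10 genes was higher in replicate 2. Of the 9 genes with a summed count of at least 10, 2 passed in the direction of replicate 1, where 1.65% of all genes tested did. In the other direction 0 passed, against 1.6% of all genes, and 0 had an unadjusted p under 0.05 there. In both directions together it was 2 of 9 against 3.26% of all genes. Each gene's counts were compared by a two-sided exact binomial test scaled to library size, adjusted over all 10162 genes (Benjamini-Hochberg, threshold 0.05), with counting error as its sole error. It compares these libraries, not conditions. The median log2 ratio of replicate 2 over replicate 1 was -0.24 over the 9 genes and 0.08 over all genes tested. With edgeR's exact test, which takes the spread of all genes between the libraries as its error, 0 of the 10 genes passed in either direction, and 2 had an unadjusted p under 0.05, both higher in replicate 1.

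**Figure D2:**
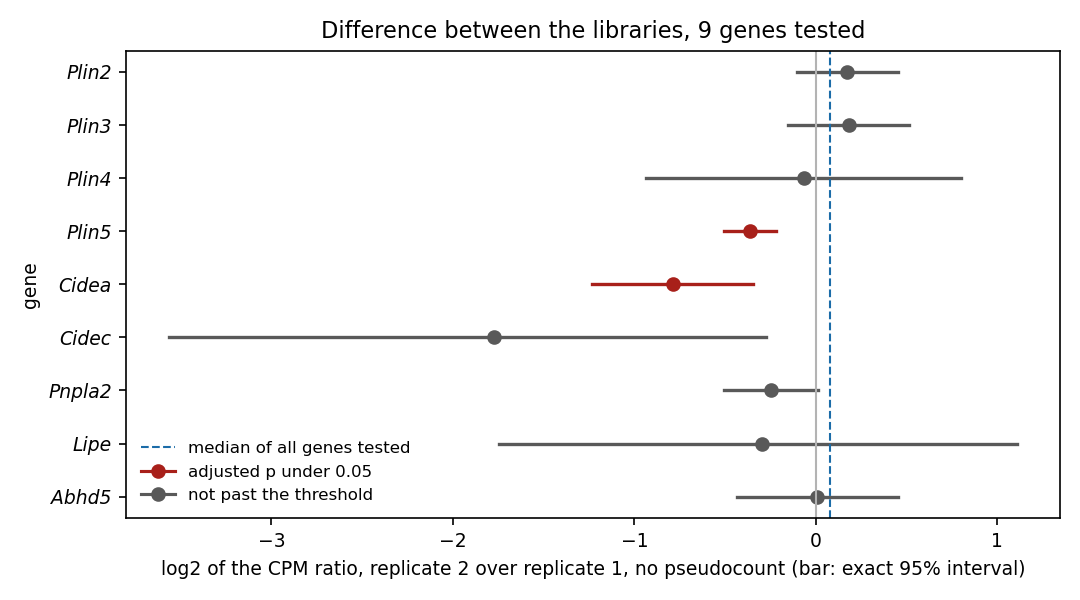
Ratio of replicate 2 to replicate 1 for the 9 genes tested, on a log2 axis without pseudocount, with exact 95% intervals as bars and the median log2 ratio of all genes tested as a dashed line. The intervals of Plin5, Cidea and Cidec lie wholly below 0, and of these Plin5 and Cidea passed the threshold.

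Plin5, whose protein ties droplets to mitochondria, lies at chr17:56111601-56117596 on the minus strand of GRCm38 (mm10), and the 5′ end of its neighbour Plin4 lies 1797 bases beyond its 3′ end on the same strand. It had 911 counts (860 CPM) in replicate 1 and 712 (669 CPM) in replicate 2, a mean of 764 ± 135 CPM. Replicate 1 was higher by 1.29 times (exact 95% interval 1.17 to 1.42, exact binomial test, adjusted p = 4.2e-05). A single-exon model of just 7 bases held 22 of the counts in replicate 1 and 0 in replicate 2, and a single-exon model of 941 bases at the 3′ end held 0 and 12. On annotated transcripts alone Plin5 was still higher in replicate 1, with a log2 ratio of -0.47 (exact binomial test, adjusted p = 4.7e-07; range over 8 alternatives 5.9e-08 to 1, the highest from edgeR).

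Most Plin5 counts fell on models with either of 2 annotated starts that lie 298 bases apart. The upstream start is that of Plin5-201 (9 exons) and the downstream start that of Plin5-202 (8 exons), whose first exon includes bases that Plin5-201 splices out. Both encode the same 463 codons. After that first exon the introns of Plin5-202 are those of Plin5-201. A Plin5-201 read that lost its 5′ end within exon 2 would therefore have the introns of Plin5-202. How many counts of the downstream start are such reads was not tested. Plin5-201 had 558 and 414 counts and Plin5-202 had 197 and 130. Over all models, the upstream start held 636 of 911 counts (69.8%, 66.7 to 72.8) in replicate 1 and 514 of 712 (72.2%, 68.7 to 75.4) in replicate 2. The downstream start held 232 (25.5%, 22.7 to 28.4) and 169 (23.7%, 20.6 to 27.0). The intervals of the libraries overlapped for both starts. The share of Plin5-201 among annotated counts was 73.9% and 76.1% and did not pass between libraries (Fisher's exact test, unadjusted p = 0.40, adjusted p = 1).

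The promoter windows of both starts are shown because models with each start held counts. They are taken from RefSeq on GRCm38.p6, run from 250 bases before the RefSeq start to 50 after it, and share 50 bases. Capitals mark AGGTCA, the core motif bound by many nuclear receptors, among them the PPAR family that controls droplet genes.
Plin5 upstream promoter, chr17:56117499-56117798, minus strand: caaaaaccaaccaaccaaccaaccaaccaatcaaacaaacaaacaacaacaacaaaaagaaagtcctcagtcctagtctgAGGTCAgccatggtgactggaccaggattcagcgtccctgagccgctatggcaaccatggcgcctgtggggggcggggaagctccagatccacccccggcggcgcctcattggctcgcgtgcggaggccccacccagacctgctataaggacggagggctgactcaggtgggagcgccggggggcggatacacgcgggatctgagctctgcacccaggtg
Plin5 downstream promoter, chr17:56117249-56117548, minus strand: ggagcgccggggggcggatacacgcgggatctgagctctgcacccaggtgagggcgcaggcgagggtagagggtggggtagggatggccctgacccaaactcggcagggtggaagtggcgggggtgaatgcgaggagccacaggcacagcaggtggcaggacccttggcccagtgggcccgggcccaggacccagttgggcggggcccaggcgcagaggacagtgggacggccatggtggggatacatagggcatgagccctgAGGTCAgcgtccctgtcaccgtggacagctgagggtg

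Of the 10 genes, 9 matched the RefSeq promoter table, with 12 promoters in all. AGGTCA, searched on both strands, was found in 4 of the 12 (33.3%), those of Abhd5, Plin2 and both of Plin5, and in 16.3% of all 32851 promoters of the same length. TCAAGGTCA, which contains AGGTCA, was in 0 of 12 and 0.423% of all. A direct repeat of AGGTCA spaced by 1 base was in 0 of 12 and 0.0396% of all. TATAAA was in 0 of 12 and 13.6% of all. These are counts of letters in the windows, not of bound sites.

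Plin5 models also left out exon 4, a coding exon of 196 bases at chr17:56116258-56116453. The skipping splice was in 35 of 869 counts (4.03%, 2.82 to 5.56) that used the next acceptor in replicate 1 and in 41 of 677 (6.06%, 4.38 to 8.13) in replicate 2. The splice is not in the reference annotation. It shifts the frame, so that reading stops after 38 codons, 569 bases upstream of the last exon junction. Among counts from the upstream start, 13 of 631 (2.06%, 1.1 to 3.5) and 27 of 504 (5.36%, 3.56 to 7.70) lacked the exon. Among those from the downstream start, 22 of 229 (9.61%, 6.12 to 14.2) and 14 of 162 (8.64%, 4.80 to 14.1) did. The downstream share was above the upstream share in each library, with intervals apart in replicate 1 and overlapping in replicate 2. Between the libraries, the intervals of the upstream share were apart, with replicate 2 higher, and those of the downstream share overlapped.

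A further splice of Plin5 differed by 3 bases, and its junctions are shown because they change the protein by a single codon. The acceptor of exon 7 was used 3 bases downstream in 39 of 876 counts (4.45%, 3.19 to 6.04) in replicate 1 and in 45 of 689 (6.53%, 4.80 to 8.64) in replicate 2. The form keeps the frame and the stop codon and has 462 codons in place of 463. The junctions span chr17:56114069-56115122 on the minus strand, with 30 bases of the upstream exon leading in both. Capitals mark the 3 bases between the acceptors. In the junction of the skipping reads, which spans chr17:56115604-56116858, they mark the base on each side of the joint.
Plin5 junction, annotated acceptor: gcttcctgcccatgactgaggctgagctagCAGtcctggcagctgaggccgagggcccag
Plin5 junction, new acceptor: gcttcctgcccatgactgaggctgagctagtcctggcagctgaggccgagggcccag
Plin5 junction of the skipping reads: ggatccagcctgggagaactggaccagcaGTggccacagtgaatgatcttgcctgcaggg

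Other Plin5 forms were rarer. An acceptor shifted by 60 bases at the first intron was in 14 of 634 counts (2.21%) and 15 of 514 (2.92%). Intron 8 was retained in 17 of 884 (1.92%, 1.12 to 3.06) and 26 of 695 (3.74%, 2.46 to 5.43). For both of these forms the intervals of the libraries overlapped. By structure, the new models with a summed count of at least 10 were led by the 9-exon model with the 3-base shift, at 19 and 30 counts, and the 8-exon model without exon 4, at 11 and 25. From the downstream start, the 7-exon model without exon 4 had 18 and 11 and the 8-exon model with the 3-base shift had 10 and 13. The 8-exon model with intron 8 retained had 17 and 16, the 9-exon model with the 60-base shift had 13 and 12, and a 2-exon model of the 3′ end had 8 and 6.

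Plin2, the perilipin found on droplets of most cell types, lies at chr4:86648386-86670060 on the minus strand. It had 202 counts (191 CPM) in replicate 1 and 229 (215 CPM) in replicate 2, a mean of 203 ± 17.2 CPM. The ratio of replicate 2 to replicate 1 was 1.13 (exact 95% interval 0.929 to 1.37, exact binomial test, adjusted p = 0.73), so a difference was not detectable at this depth. Plin2-201, the annotated coding transcript with 8 exons, held 137 counts (67.8% of the gene) and 167 (72.9%).

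In both libraries a large minority of Plin2 counts ended in another last exon, 7985 bases downstream of the annotated one. In the reference this exon is known at chr4:86648386-86648579 from Plin2-208, a short processed transcript with no coding sequence, which had 0 and 1 counts. Models with the distal exon held 55 of 202 counts (27.2%, 21.2 to 33.9) in replicate 1 and 56 of 229 (24.5%, 19.0 to 30.6) in replicate 2. The intervals of the libraries overlapped. Most of them were a single structure of 9 exons with 48 and 45 counts, all of whose introns are annotated, joined in a combination that the reference lacks. A splice that leaves out the annotated last exon altogether was in 7 of 198 counts (3.54%) and 8 of 228 (3.51%), and is not annotated.

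The ends of the Plin2 reading frame are shown because the distal form changes the protein. In the 9-exon form a splice site inside the annotated last exon removes its last 26 codons and its stop. The distal exon then adds 26 other codons, so that both forms have 425 codons. The form without the annotated last exon has 328. Both sequences begin with the same 30 bases up to the splice site and end with the stop codon, on the minus strand of chromosome 4. Capitals mark the part that differs, 81 bases in each, stop included. The annotated end spans chr4:86657033-86657143 and the distal form spans chr4:86648499-86657143 across its intron.
Plin2 proximal end: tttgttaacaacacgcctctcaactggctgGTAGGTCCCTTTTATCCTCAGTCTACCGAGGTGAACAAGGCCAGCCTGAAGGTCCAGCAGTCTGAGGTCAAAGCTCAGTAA
Plin2 distal end: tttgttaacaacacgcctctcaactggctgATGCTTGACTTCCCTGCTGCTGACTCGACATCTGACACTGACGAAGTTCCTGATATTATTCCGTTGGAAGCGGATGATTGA

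**Figure D3:**
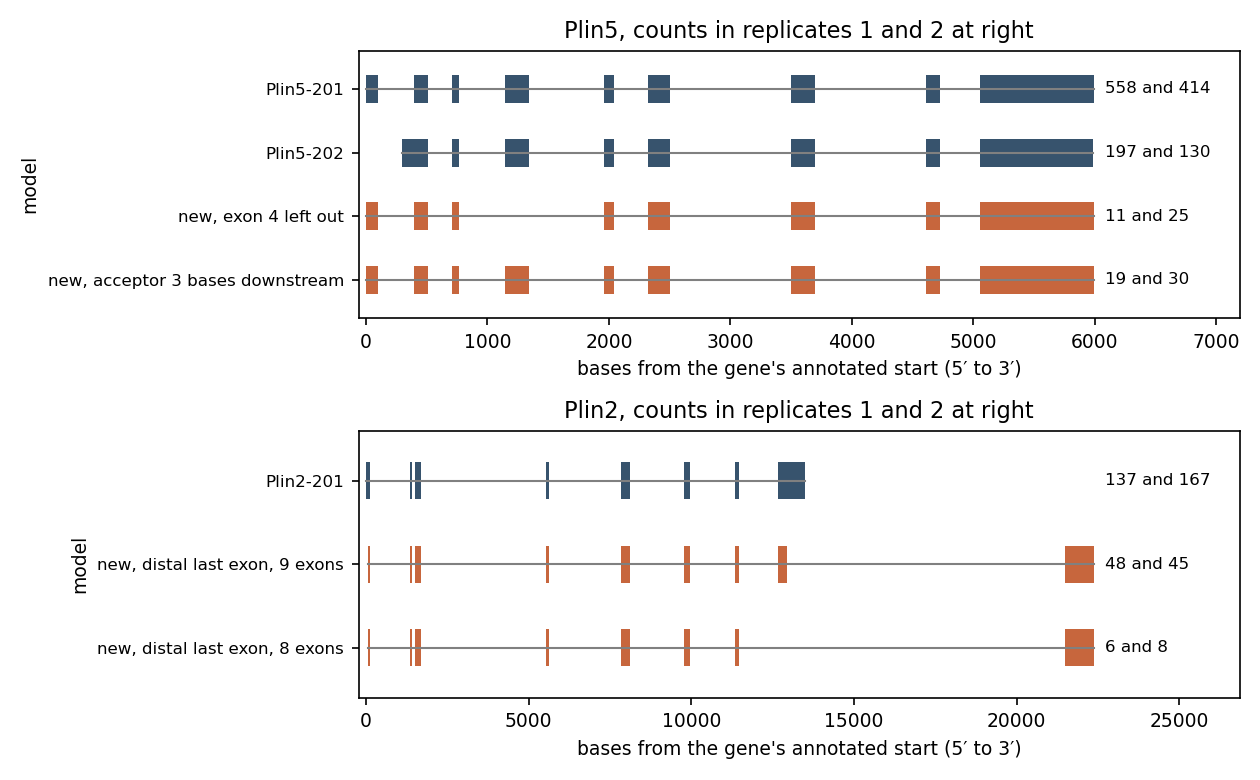
Exon maps of the main Plin5 and Plin2 models, drawn to scale from each gene's annotated start, with exons as boxes, introns as lines, annotated models in blue, new models in orange and counts in replicates 1 and 2 at the right. The 3-base shift of Plin5 is too small to see at this scale, and the Plin2 distal exon, drawn with the end it has in replicate 1, lies far beyond the end of Plin2-201.

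Plin3, a perilipin that moves between the cytosol and young droplets, lies at chr17:56277476-56292873 on the minus strand. It had 143 counts (135 CPM) in replicate 1 and 163 (153 CPM) in replicate 2, a ratio of replicate 2 to replicate 1 of 1.13 (0.900 to 1.43, exact binomial test, adjusted p = 0.78). Plin3-201 held 106 counts (74.1%) and 125 (76.7%) and was the only annotated transcript with counts. The next forms were shorter at the 5′ end: a 4-exon model with 7 and 11 counts and a 7-exon model with 8 and 7. Plin3 thus had no second form as frequent as the distal form of Plin2.

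Plin4 and Plin1, both abundant in fat, were scarce here. Plin4, at chr17:56100591-56109803 on the minus strand, had 25 counts (23.6 CPM) and 24 (22.5 CPM), and the ratio of replicate 2 to replicate 1 was 0.955 (0.522 to 1.74, exact binomial test, adjusted p = 1). No count fell on a Plin4 reference transcript in either library, although the annotated protein has 1403 codons and models of up to 6436 and 5237 bases were present. An unspliced model held 18 (72.0%) and 17 (70.8%) of the counts. It lay across the end of the gene and reached 967 bases into Hdgfl2, a gene on the opposite strand whose 3′ end overlaps that of Plin4 by 17 bases. Whether these reads came from Plin4 is uncertain. The remaining 7 counts in each library were spread over models of at most 2 counts. Plin1, the main coat of fat cell droplets, had 2 counts in each library (1.89 and 1.88 CPM), under the floor of 3 counts, and was not tested.

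Cidea, known from brown fat and also from heart, lies on chromosome 18. It had 120 counts (113 CPM) in replicate 1 and 70 (65.7 CPM) in replicate 2, a mean of 89.5 ± 33.6 CPM. Replicate 1 was higher by 1.72 times (exact 95% interval 1.27 to 2.35, exact binomial test, adjusted p = 0.0127). The call did not hold on annotated transcripts alone (exact binomial test, adjusted p = 0.0571; range over 8 alternatives 0.0033 to 1, the highest from edgeR). The forms were alike in both libraries. Cidea-201, with 5 exons and 217 codons, held 90 (75.0%) and 53 (75.7%) of the counts. A fragment of 404 bases within the last exon held 26 (21.7%, 14.7 to 30.1) and 13 (18.6%, 10.3 to 29.7).

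Cidec, which drives the growth of large droplets in white fat, lies at chr6:113424634-113435760 on the minus strand. It had 17 counts (16.1 CPM) in replicate 1 and 5 (4.70 CPM) in replicate 2. Replicate 1 was 3.42 times replicate 2, with a wide exact 95% interval of 1.21 to 11.9 and an adjusted p of 0.18 (exact binomial test, unadjusted p = 0.0104), so the difference did not pass. Cidec-202 had 10 and 3 counts, Cidec-201 had 3 and 1 and Cidec-203, which has 249 codons in place of 239, had 3 and 0.

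Cidea and Cidec are also adipocyte genes, and adipocyte markers were present and higher in replicate 1 as a sum. Of 17 markers, 12 were detected and held 496 counts in replicate 1 and 341 in replicate 2. Fabp4, a fatty acid carrier also made by capillary endothelium, took most of them with 343 and 234 (exact binomial test, adjusted p = 0.00034). Ucp1, the uncoupling protein that defines brown fat, had 32 counts in replicate 1 and 2 in replicate 2, a ratio of 16.1 (exact 95% interval 4.10 to 138, exact binomial test, adjusted p = 3.7e-06). Fabp4 and Ucp1 were the 2 of 7 tested markers that passed in the direction of replicate 1, against 1.65% of all genes, with 0 in the other direction (1.6% of all genes) and a median log2 ratio of -0.40. Fabp4 lost its call on reference transcripts alone and with edgeR, and Ucp1 kept it with both.

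The other detected adipocyte markers did not pass or were not tested. Adipoq, the fat cell hormone adiponectin, had 8 and 6 counts, and Cfd, the secreted adipsin, had 23 and 23. Pparg, the receptor that drives fat cell formation, had 42 and 28, and Prdm16, a brown fat regulator, had 20 and 15. Slc36a2 had 18 and 22 counts. None of these 5 genes passed the threshold. Cebpa had 4 and 4, Trarg1 had 4 and 3, Retn had 1 and 3, Otop1 had 1 and 0 and Lep, the leptin gene, had 0 and 1. Adrb3, Dio2, Elovl3, Zic1 and Acvr1c had no count in either library. The part of these cells, and that of the atrial markers given above, in the differences of Cidea, Cidec and Plin5 was not tested. In bulk tissue fewer cells of a type and less RNA per cell cannot be told apart.

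**Figure D4:**
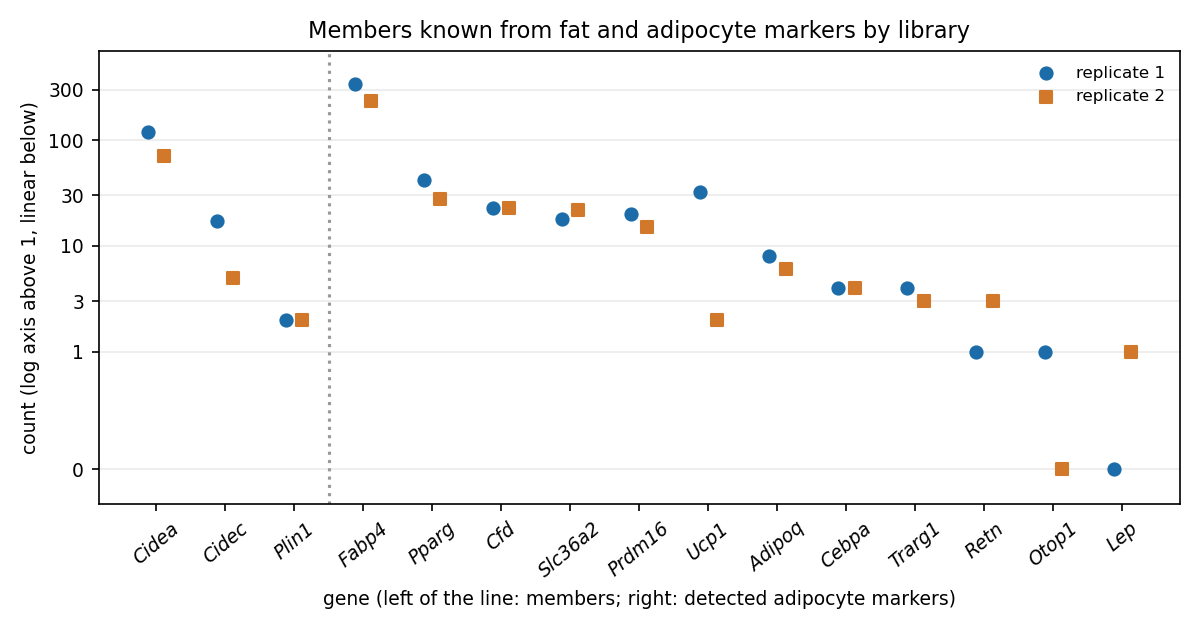
Counts of Cidea, Cidec and Plin1, left of the dotted line, and of the 12 detected adipocyte markers, right of it, with circles for replicate 1 and squares for replicate 2; the axis is logarithmic above 1 and linear below. Ucp1, at 32 and 2 counts, shows the widest gap among markers with at least 10 counts, and Plin1 is at 2 in both libraries.

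Pnpla2, which encodes adipose triglyceride lipase, was the more abundant of the lipases. It lies at chr7:141455198-141460743 on the plus strand. It had 276 counts (261 CPM) in replicate 1 and 234 (220 CPM) in replicate 2, a mean of 240 ± 28.9 CPM. The ratio of replicate 1 to replicate 2 was 1.19 (0.993 to 1.42, exact binomial test, adjusted p = 0.44). Pnpla2-203, with 9 exons and 486 codons, held 220 (79.7%) and 188 (80.3%) of the counts, nearly the same share in both.

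Single-exon Pnpla2 models were of 2 kinds. A model of the class Genomic, without introns, held 13 of 276 counts (4.71%, 2.53 to 7.92) in replicate 1 and 0 of 234 (0 to 1.56) in replicate 2. It begins on the last base before intron 4 and runs through introns 4 to 8. A single-exon incomplete match held 0 and 6. It lies wholly within the last exon and covers no intron, so it does not show whether its reads were unspliced. All single-exon models together held 13 (4.71%) and 6 (2.56%, 0.947 to 5.50), and these intervals overlapped. Introns 4 to 8 were each retained in 4.71% to 5.93% of counts in replicate 1 and in 0% to 0.885% in replicate 2. The intervals of the libraries were apart for introns 4, 5, 6 and 8 and overlapped for intron 7. These values largely restate the same 13 unspliced reads. In replicate 1 those reads were all of the retained counts of introns 4, 5 and 8. They were also 13 of the 16 for intron 6 and 13 of the 14 for intron 7. A 6-exon model that starts inside the gene ran the other way, with 9 and 18 counts. An 8-exon model had 9 and 4.

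Lipe, at chr7:25379527-25398710 on the minus strand, had 11 counts (10.4 CPM) and 9 (8.45 CPM), a ratio of replicate 2 to replicate 1 of 0.814 (0.298 to 2.16, exact binomial test, adjusted p = 0.97). Its counts fell on 11 structures, of which 1 was found in both libraries, Lipe-202 with 4 and 4 counts. Lipe-201, whose protein of 802 codons is longer than the 759 of Lipe-202, had 1 and 0. The gene lies within an antisense gene on the other strand. Per kilobase of dominant transcript, Lipe stood at 3.54 ± 0.51 CPM against 91.5 ± 11.0 for Pnpla2.

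Abhd5, the coactivator of the Pnpla2 lipase, lies at chr9:122351608-122381524 on the plus strand. It had 87 counts (82.1 CPM) and 88 (82.7 CPM), a ratio of replicate 2 to replicate 1 of 1.01 (0.740 to 1.37, exact binomial test, adjusted p = 1), so differences beyond this interval were not seen. Abhd5-204, with 351 codons, held 49 (56.3%, 45.3 to 66.9) and 60 (68.2%, 57.4 to 77.7) of the counts. Abhd5-202, which has 198 codons, held 8 and 4.

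Models with a new splice site held a larger share of Abhd5 counts (19.5%, 11.8 to 29.4, and 12.5%, 6.41 to 21.3) than of those of Plin2, Plin3, Plin5, Pnpla2 or Cidea. In these genes they held at most 6.60% in either library. The interval of Abhd5 lay above those of all these genes in replicate 1, but overlapped those of Plin3, Plin5 and Cidea in replicate 2. The wide intervals of Plin1, Plin4, Cidec and Lipe, each with 25 counts or fewer per library, overlapped that of Abhd5 in both libraries. A 7-exon model with 17 counts (19.5%, 11.8 to 29.4) and 9 (10.2%, 4.78 to 18.5) used a donor 605 bases downstream of the annotated one in the first intron. That splice was in 17 of 66 counts (25.8%, 15.8 to 38.0) and 10 of 71 (14.1%, 6.97 to 24.4) that used the same acceptor. For this splice the intervals of the libraries overlapped. The deposited 7-exon model begins at 122351789, inside the annotated start codon, and so lacks a whole start codon. The frame was therefore read on an exon that begins at the start of Abhd5-204 and ends at the new donor. From the annotated start codon that exon reaches a stop after 18 codons. An unspliced model with 7 and 5 counts lay wholly within an antisense gene on the other strand that overlaps the last 950 bases of Abhd5, so its origin is uncertain.

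Across the 10 genes, annotated transcripts held 1387 of 1794 counts (77.3%, 75.3 to 79.2) in replicate 1 and 1155 of 1536 (75.2%, 73.0 to 77.3) in replicate 2, against 80.7% and 80.4% over all reference genes. The rest belonged to classes set by the authors' annotation software. Incomplete matches to an annotated transcript (ISM) held 8.14% (6.91 to 9.50) and 11.8% (10.2 to 13.5), with intervals apart. Over all reference genes they held 8.59% and 8.42%. New combinations of known splice sites (NIC) held 6.41% and 6.90%, against 4.89% and 5.28% over all reference genes. Models with a new splice site (NNC) held 4.24% and 4.62%, against 3.1% and 3.3%. The class Genomic held 3.90% of the counts in replicate 1 and 1.5% in replicate 2, where the intervals (3.05 to 4.90 and 0.952 to 2.24) did not overlap. Over all reference genes that class held 2.77% and 2.63%. Of the 70 Genomic counts in replicate 1, 22 were the 7-base Plin5 model and 13 the unspliced Pnpla2 model. The single-exon models of these genes in replicate 2, with 12 and 6 counts, were classed ISM. Single-exon models of any class held 5.41% (4.41 to 6.56) and 3.52% (2.65 to 4.56), with overlapping intervals, against 6.65% and 6.24% over all reference genes.

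The models of the 10 genes formed 172 structures, most of them rare: 99 had 1 read in all and 52 were found in both libraries. Those 52 held 94.3% of the counts in replicate 1 and 94.1% in replicate 2. The share of the dominant transcript among annotated counts was compared between libraries in 4 genes, Plin2, Plin5, Pnpla2 and Abhd5. By Fisher's exact test 0 of the 4 passed, and 0 had an unadjusted p under 0.05, where 0.038% of 2633 genes passed (1 gene). Plin2 (137 of 137 and 167 of 168 counts) and Pnpla2 (220 of 220 and 188 of 190) had too few other annotated counts to pass. New models, among them the distal form of Plin2, stayed out of this test. Against all other models of the gene, 0 of 6 genes passed (Fisher's exact test, smallest unadjusted p = 0.12), where 12 of 5432 did.

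**Figure D5:**
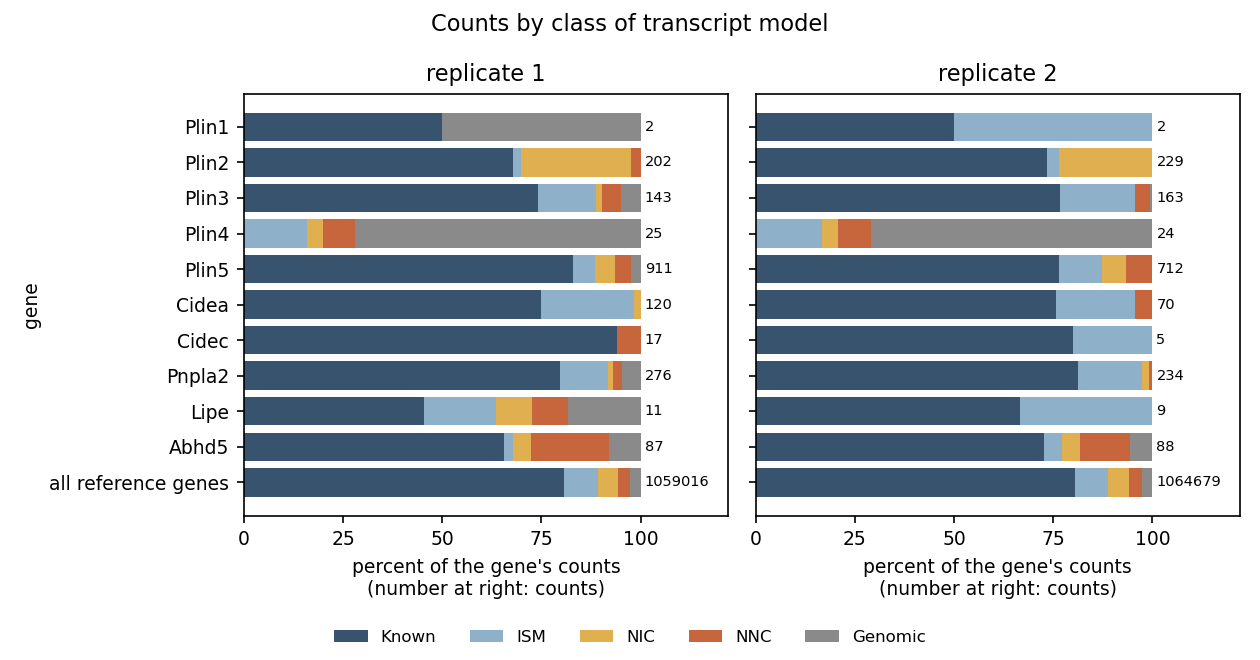
Share of each gene's counts by class of transcript model in replicate 1 (left) and replicate 2 (right), with all reference genes in the bottom row and the number of counts beside each bar. Plin4 is the gene without annotated counts, at 0 of 25 and 0 of 24, and the new combinations of Plin2 stand at 27.7% and 23.6%.

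The wider lipid pathway was measured with the same test. Of 59 further names in 7 roles, 54 were detected (a missing name, Ldaf1, is the newer symbol of Tmem159) and 48 tested, of which 4 were higher in replicate 1, 3 were higher in replicate 2 and 41 did not pass, with a median log2 ratio of 0.16. Over all genes tested the shares were 1.65% and 1.6%. In fatty acid supply 3 of 8 tested genes passed. Fabp3, the heart fatty acid carrier, had 10707 and 9642 counts and was higher in replicate 1 by 1.12 times (exact binomial test, adjusted p = 1.1e-12), a call lost with the trend of log2 ratios on transcript length removed. Lpl, the lipase that frees fatty acids from blood lipoproteins, had 2574 and 2983 and was higher in replicate 2 (exact binomial test, adjusted p = 1.2e-05), a call lost with that trend removed and with TMM scaling. Fabp4, which like Pparg and Adrb3 is also on the adipocyte list, was higher in replicate 1, as given above, but not on reference transcripts alone.

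In triglyceride synthesis 0 of 7 tested genes passed. Dgat2, which makes triglyceride from diacylglycerol, had 1152 and 1063 counts and was higher in replicate 1 with TMM scaling and with the length trend removed. Agpat3 had 355 and 331. In droplet formation 0 of 5 passed, with Fitm1, a muscle protein that partitions fat into droplets, at 323 and 284 and Fitm2 at 177 and 155. Among other surface proteins 0 of 4 passed, with Rab18 at 307 and 361 and Aup1 at 69 and 93. Unadjusted p-values under 0.05 in the pathway numbered 7 in the direction of replicate 1 and 11 in that of replicate 2.

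Among lipolysis partners 1 of 10 passed. G0s2, the protein inhibitor of the Pnpla2 lipase, had 83 counts in replicate 1 and 45 in replicate 2 (exact binomial test, adjusted p = 0.028), while Pnpla8 had 184 and 171 and Mgll, which splits monoglyceride, had 179 and 173. The call of G0s2 was lost with the length trend removed, where Plin5 and Cidea kept theirs. In beta-adrenergic control 1 of 7 passed: Prkar1a, a regulatory subunit of protein kinase A, had 904 and 1100 (exact binomial test, adjusted p = 0.0015), a call lost with TMM scaling and with the length trend removed, and Gnas had 1396 and 1367.

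Among nuclear receptors and coactivators 2 of 7 tested genes passed, 1 in each direction. Esrra had 232 counts in replicate 1 and 168 in replicate 2 (exact binomial test, adjusted p = 0.038), and Ppargc1b, a coactivator of that receptor, had 26 and 60 (exact binomial test, adjusted p = 0.014). Both lost the call on reference transcripts alone, Esrra also with no minimum count and Ppargc1b also with the length trend removed. Hif1a had 40 and 51 and did not pass. With edgeR's exact test 0 of the pathway genes passed in either direction, with an unadjusted p under 0.05 in 2 genes higher in replicate 1 and 3 higher in replicate 2. With the length trend removed, 0 were higher in replicate 2 and 3 were higher in replicate 1, namely Dgat2, Esrra and Fabp4.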

How the data were processed

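Long-read RNA sequencing libraries of 1 group (2 replicates) were analysed. The authors deposited whole-number counts of reads per transcript model, without normalization, per the file headers, and list models from 1 count up. Their annotation combines GENCODE M21 genes on mm10 and new models named TALON; the exons of 49 reference transcripts of the 10 genes were identical in GENCODE M21. The sources used here do not give the aligner, software version, model filters or instrument.

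Counts were summed per gene. CPM used the counts on reference genes (1059016 and 1064679); 1 count was worth 0.944 and 0.939 CPM. New genes (2.68% and 2.89%) and spike-ins (1.72% and 1.25%) stayed out of totals and tests. Log2 ratios carry a pseudocount of 1 CPM. Genes with a summed count of at least 10 were tested by an exact conditional binomial test, and dominant transcripts by Fisher's exact test where each library had at least 20 annotated counts (scipy 1.17.1), with Benjamini-Hochberg adjustment. No quasi-likelihood fit was possible with 1 library on each side. Alternatives used edgeR 4.0.16 and DESeq2 1.42.0. Intervals are exact Clopper-Pearson at 95%. New models with introns were matched between libraries by their full set of introns, and those without introns by class and 3′ end. The tests were tested on simulated data. Named were all 10 genes and their models with a summed count of at least 10 (rarer models named were picked with their values known), the 2 highest genes of each pathway role by mean CPM and every pathway gene past the threshold, all adipocyte markers with a count and the 2 highest of other marker lists. The members and lists were chosen with earlier results of these data known. Coding lengths were read from GENCODE M21 transcripts.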

Additional observations from a re-analysis of the deposited data

Results flagged for a closer look

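A new antisense gene model without introns lay within Plin3, on the plus strand from 56286209 (replicate 1) or 56286213 (replicate 2) to 56287794 of chromosome 17. It had 6 counts in replicate 1 and 7 in replicate 2, above the floor of 3 counts, and lies outside the reference genes on which the levels above rest. The series has no control samples to set it against.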

How the results depend on the processing

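No paired analysis was possible because the series holds 1 group. The 9 log2 ratios of the genes were recomputed in 71 cases: 64 kept direction and side of the threshold, 3 lost the call and 4 changed sign. Plin5 lost its call with edgeR's exact test (log2 ratio -0.36), and Cidea with that test (-0.78) and on reference transcripts alone (-0.76). Abhd5, near 0, turned to -0.074 with TMM scaling, -0.033 with DESeq2 size factors and -0.12 with the length trend removed, and Lipe to 0.23 on reference transcripts alone. None of the 4 sign changes involved a call. On reference transcripts alone 1 of the 10 genes was higher in replicate 1, 2 pathway genes and 1 adipocyte marker; with edgeR these counts were 0, 0 and 1. Pathway genes higher in replicate 2 numbered 1 with TMM scaling, 0 with the length trend removed and 0 with edgeR. For the edgeR counts the wider error is the test's own construction; for the others the cause was not tested. TMM scaling shifted every log2 ratio by -0.08. Without replicate 1 the summed level was 1443 CPM and without replicate 2 it was 1694, and the share on reference transcripts 75.2% and 77.3%. Depth limits Plin1, Cidec and Lipe, each at 17 counts or fewer in each library. With 2 libraries, leaving out either leaves no test between them.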
